A study of Homo sapiens with 10 samples.

Results

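The 4 TIF1 family genes TRIM24, TRIM28, TRIM33 and TRIM66 were examined among 20037 protein-coding genes in ChIP-seq peak lists. The cells were 22RV1, a human cell line established from prostate cancer. Members were chosen by name, and every peak interval over a gene and every summit inside it or within 1 kb of its ends was taken, in hg38 coordinates. The labels name 10 samples with 1 library per group. Peak lists of the 6 immunoprecipitated libraries were used, and the 4 IgG (mock) libraries were not analysed here. Which protein was precipitated is not given in the sources used here, and the series title concerns RB, TRIM24, mTOR and DUSP2. The groups were cells with a control siRNA, cells with an siRNA against RB1, cells with an empty vector called EV(245-255), cells with the plasmid HA-RB(245-255), cells with another empty vector called EV(RBN), and cells with the plasmid HA-RBN. Values given in library order follow this sequence. HA is an epitope tag, and the numbers in the construct name are RB residues, which the series' design text writes as 244 to 255. The labels do not say what RBN stands for. A field in the labels of HA-RB(245-255) describes it as a control, whereas its title names the plasmid and was used. All groups were cells of the same line after transfection, in unmodified RPMI culture with serum. No group had a replicate, so differences carry no p-value, and intervals here are 95% intervals for counting error alone.

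TIF1 proteins are chromatin co-regulators with B-boxes and a coiled coil at one end and a PHD finger next to a bromodomain at the other, a pair of modules that bind histone tails. TRIM24 (TIF1alpha) is a co-regulator of nuclear receptors. TRIM28 (TIF1beta, KAP1) is the co-repressor of KRAB zinc finger proteins and brings in HP1 proteins and the histone methyltransferase SETDB1. TRIM33 (TIF1gamma) acts with SMAD proteins downstream of TGF-beta, and TRIM66 (TIF1delta) is the least studied member and is best known from testis.

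Of the members, 2 have promoter windows in the RefSeq table used (GRCh38.p14), TRIM33 and TRIM66, with 4 windows between them that run from 250 bases before to 50 after a transcription start. The windows of TRIM33 and of a TRIM66 start are printed because a listed summit lies inside each. Both are read 5′ to 3′ on the minus strand, the first at chr1:114511154-114511453 and the second at chr11:8682616-8682915. Capitals mark every match of the 7 letter strings searched on both strands.
TRIM33: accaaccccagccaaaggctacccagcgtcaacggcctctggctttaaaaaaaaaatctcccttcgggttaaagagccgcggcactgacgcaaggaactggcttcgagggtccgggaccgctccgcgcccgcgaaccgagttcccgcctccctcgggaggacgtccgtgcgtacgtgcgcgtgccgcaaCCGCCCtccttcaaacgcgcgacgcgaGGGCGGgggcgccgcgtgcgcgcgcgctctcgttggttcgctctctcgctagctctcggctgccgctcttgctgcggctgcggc
TRIM66: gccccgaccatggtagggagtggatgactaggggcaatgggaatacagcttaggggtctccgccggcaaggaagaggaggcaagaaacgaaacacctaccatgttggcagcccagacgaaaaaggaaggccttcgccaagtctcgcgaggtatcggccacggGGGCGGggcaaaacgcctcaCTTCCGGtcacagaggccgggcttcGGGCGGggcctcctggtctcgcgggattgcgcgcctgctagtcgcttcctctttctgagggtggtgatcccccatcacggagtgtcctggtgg

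The strings were the promoter box CCAAT, the GC box of SP-type factors GGGCGG, the core of ETS factors CCGGAAG, the E2F-type strings TTTGGCGC and also TTTCCCGC, the cAMP response element TGACGTCA and the half-site of nuclear receptors AGGTCA. No 2 of the matches printed overlap each other. The TRIM33 window held GGGCGG 2 times, once on each strand, and none of the other strings. The TRIM66 window held GGGCGG 2 times and CCGGAAG 1 time, on the opposite strand. GGGCGG or its complement was in 45.0% of all 35116 windows of 300 bases in the table, and CCGGAAG in 10.3%. The TRIM33 window held 44 CG dinucleotides, more than 95.8% of windows, and the TRIM66 window held 22, more than 62.3%, against a median of 14. The RB1 siRNA summit fell on base 114 of the TRIM33 window, counted from its 5′ end. The EV(RBN) summit fell on base 148 of the TRIM66 window.

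The lists give for each peak an interval and 1 summit. Strength is given here as the number of DNA fragments stacked at the summit, recovered from the authors' fold and p-value, and as enrichment, which is that number over the average fragment depth of the same library. EV(245-255) had the lowest such depth, 0.187 fragments per base, and HA-RBN the highest, 0.634. The lists of the siRNA and 245-255 pairs, which have IgG partners, held 20860 to 92479 intervals that covered 92.9% to 95.7% of the chromosomes. Those of the RBN pair held 156785 and 243310 intervals that covered 2.75% and 4.89%. A wide interval lists only 1 summit, so weaker stacks within it do not appear. Whether a library has an IgG partner cannot be told apart from the experiment it belongs to.

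TRIM24 and TRIM28 had a gene end summit in all 6 libraries, TRIM33 in 5 and TRIM66 in 2. The number of members with such a summit was 2 of 4 with the control siRNA, where 28.1% of all genes had one, and 3 of 4 with RB1 siRNA, where 33.5% did. It was 3 of 4 in EV(245-255) against 45.4% of genes and 3 of 4 in HA-RB(245-255) against 45.5%. In the RBN pair it was 4 of 4 with the empty vector, against 60.1%, and 4 of 4 with HA-RBN, against 73.3%. With only 4 members, nothing is read from these counts. The plot of enrichment at gene ends by library gives the strength of each.

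**Figure D1:**
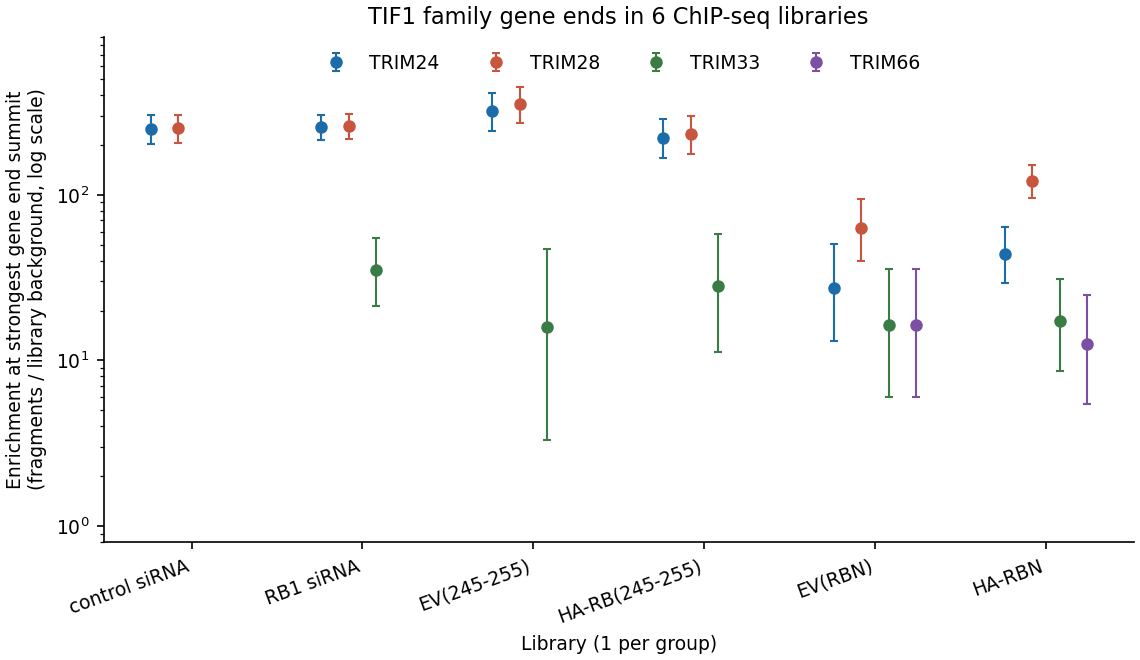
Enrichment at the strongest summit within 1 kb of a gene end (fragments over library background, log axis) for each TIF1 gene in each of the 6 libraries, with 95% counting intervals as bars. TRIM24 and TRIM28 lie between 220 and 352 in the 4 libraries with an IgG partner, TRIM33 between 16.0 and 35.3 where it is listed, and TRIM66 is listed only in the RBN pair.

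TRIM24 spans chromosome 7 from 138460259 to 138589996 (gene ID 8805). Its end summits lay at the lower end, which as background is where the gene is transcribed from. The strongest of them stood at 138460208, 138460259, 138460305 and 138460245 in the first 4 libraries. In the RBN pair it stood at 138460138 in EV(RBN) and 138460139 in HA-RBN, upstream of the other 4.
The control siRNA library had 103 fragments there (84.1 to 125) and RB1 siRNA 138 (116 to 163). EV(245-255) had 60 (45.8 to 77.2) and HA-RB(245-255) 55 (41.4 to 71.6). EV(RBN) had 10 (4.80 to 18.4) and HA-RBN 28 (18.6 to 40.5).
As enrichment the same summits were 249, 256, 320, 220, 27.3 and 44.2 in that order, so the 4 libraries with an IgG partner lay together and the RBN pair lay well below them without overlap of the intervals. EV(245-255) listed a further summit 553 bp inside the gene, with 13 fragments as the lowest number that satisfies the authors' values. A number of 527 also satisfies them, and would make this summit the strongest there.

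TRIM28 spans chromosome 19 from 58544064 to 58550715 (gene ID 10155) and had the tightest position. All 6 summits at its lower end, again the side it is transcribed from, fell within 90 bp, from 58544122 to 58544212, and were at the identical base in EV(245-255) and HA-RB(245-255). The control siRNA library had 104 fragments (85.0 to 126) and RB1 siRNA 140 (118 to 165). In both, these are the lowest numbers that satisfy the authors' values, and a higher number also does. EV(245-255) had 66 (51.0 to 84.0) and HA-RB(245-255) 58 (44 to 75).
EV(RBN) had 23 (14.6 to 34.5) and HA-RBN 77 (60.8 to 96.2). Enrichment was 252, 260, 352, 232, 62.7 and 121 in library order. The median gene end was also lower in the RBN pair, with enrichment of 60.5, 52, 64, 44, 13.6 and 15.8 in library order. TRIM28 had 4.16 to 5.5 times the fragments of the median gene end in the first 4 libraries, 4.6 times in EV(RBN) and 7.7 times in HA-RBN. TRIM24 had 4.12 to 5 times in the first 4, 2 times in EV(RBN) and 2.8 times in HA-RBN. The authors' −log10 q of this peak reached 49.1 in HA-RBN and 10.04 in EV(RBN), while for TRIM24 it was 13.1 and 3.10.
In the siRNA and 245-255 libraries the authors' −log10 q at both genes was at most 2.49. A second, weaker summit of TRIM28 lay at its upper end in the RBN pair only, with 6 fragments at 58551287 in EV(RBN) and 12 at 58550814 in HA-RBN. CHMP2A, an ESCRT-III subunit gene that is read towards TRIM28 from the minus strand, ends 279 and 752 bp from these summits. The summit therefore lay where the 3′ sides of both genes meet.

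The level at TRIM28 relative to TRIM24 was not the same in all experiments. The fragments of TRIM28 divided by those of TRIM24 gave 1.01 (0.761 to 1.34) for the control siRNA and 1.01 (0.796 to 1.29) for RB1 siRNA. The ratio was 1.1 (0.764 to 1.59) for EV(245-255) and 1.05 (0.717 to 1.55) for HA-RB(245-255). For EV(RBN) it was 2.30 (1.05 to 5.41), and for HA-RBN 2.75 (1.76 to 4.4). The genes were thus level within counting error in 4 libraries and apart in the RBN pair. The HA-RBN interval overlapped none of the other 4, whereas the EV(RBN) interval overlapped all 4. All of this uses the lowest fragment numbers that satisfy the authors' values. For TRIM28, 151 with the control siRNA and 1238 with RB1 siRNA also satisfy them. With those numbers TRIM28 would exceed TRIM24 in the siRNA libraries too, so their part of the contrast rests on the lowest numbers. The comparison was chosen after the values were seen and the difference between experiments was not tested.

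**Figure D2:**
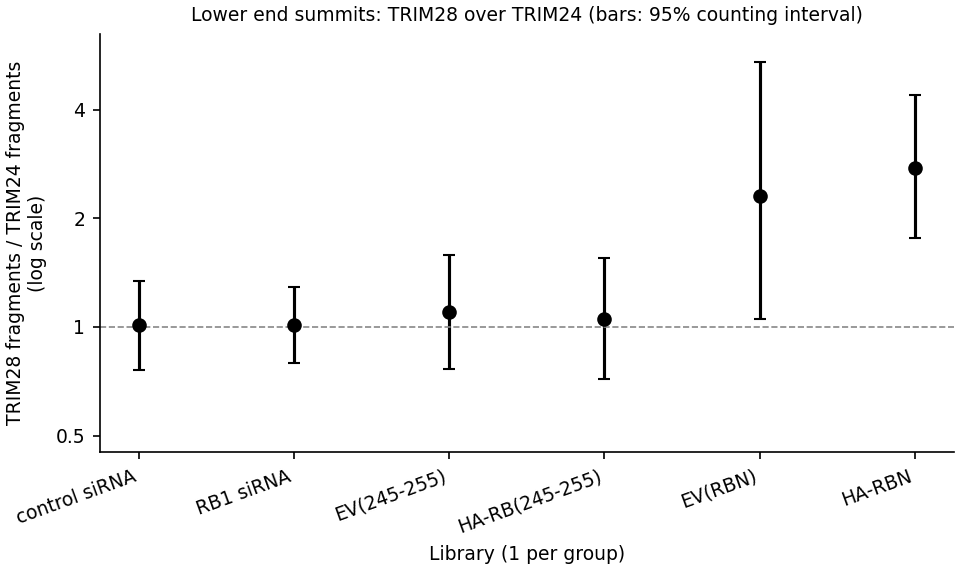
Fragments at the TRIM28 summit divided by those at the TRIM24 summit in each library (log axis), with 95% counting intervals as bars and a dashed line at 1. The ratio is 1.01 to 1.1 in the siRNA and 245-255 libraries and 2.30 and 2.75 in the RBN pair. Fragments are the lowest numbers that satisfy the authors' values, and for TRIM28 in both siRNA libraries a higher number also does.

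TRIM28 kept a place among the strongest gene ends in every library. TRIM24 did so in the first 4 and lay lower in the RBN pair. Among the 5629 to 14696 genes with a gene end summit, TRIM28 lay at percentiles 93.5, 96.2, 97.6, 97.0, 96.8 and 98.3 in library order. TRIM24 lay at 93.3, 96.2, 96.8 and 96.3 in the first 4 and at 81.1 and 85.4 in the RBN pair. The median gene end had 25, 28, 12, 11, 5 and 10 fragments. TRIM33 stayed in the lower or middle part, at percentiles 35.1, 8.43, 31.3, 59.1 and 53 from RB1 siRNA onwards. TRIM66 lay at 59.1 in EV(RBN) and 39.6 in HA-RBN.

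TRIM33 spans chromosome 1 from 114392790 to 114511203 (gene ID 51592) on the minus strand, so its start is the upper end and the printed window surrounds it. RB1 siRNA had 19 fragments (11.4 to 29.7) 137 bp upstream of the start, inside that window. HA-RBN had 11 (5.49 to 19.7) 315 bp upstream, EV(RBN) 6 (2.2 to 13.1) 533 bp upstream, HA-RB(245-255) 7 (2.81 to 14.4) 495 bp downstream and EV(245-255) 3 (0.619 to 8.77) 767 bp downstream.
Enrichment ran only from 16.0 to 35.3, and the 5 summits were spread over 1300 bp, unlike those of TRIM24 and TRIM28. The lncRNA gene LOC124904348 begins 135 bp beyond the TRIM33 start, so the summits upstream may belong to either gene. With the control siRNA no summit was listed for TRIM33. Its start lay in an interval of 453275 bp whose only summit, of 29 fragments, was 246724 bp away, so the list does not show whether fragments stacked there. The only other end summit, at the lower end, had 2 fragments in EV(RBN).

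TRIM66 spans chromosome 11 from 8612040 to 8683231 (gene ID 9866), also on the minus strand. At its upper end EV(RBN) had 6 fragments at 8682768 (2.2 to 13.1) and HA-RBN 8 at 8682412 (3.45 to 15.8), with enrichment of 16.4 and 12.6. RPL27A, a ribosomal protein gene read in the opposite direction, begins at 8682792 and overlaps TRIM66 there. The EV(RBN) summit lay 24 bp from the RPL27A start and 103 bp upstream of the TRIM66 start whose window is printed, so it cannot be given to either gene.
In the libraries with an IgG partner no TRIM66 end summit was listed. With the control siRNA, RB1 siRNA and in EV(245-255) the interval over its upper end had its summit 5714 to 5824 bp away, near the far end of RPL27A, with 25, 29 and 21 fragments. That RPL27A site had 10, 6 and 21 fragments in the last 3 libraries. It was thus listed in all 6 libraries, between 812 and 1134 bp inside the upper end of RPL27A. TRIM66 also had a summit of 2 fragments at its lower end in EV(RBN).

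Inside the gene bodies, summits had at most 14 fragments. The 4 genes together held 1, 2, 4, 11, 16 and 36 body summits in library order. Body summits per 100 kb in TRIM24 were 0.771, 1.54, 1.54, 3.08, 5.40 and 11.6 in library order, and over the bodies of all genes they were 0.525, 0.906, 2.51, 3.01, 5.78 and 8.95. TRIM33 had 0, 0, 0.844, 5.07, 3.38 and 9.29, and TRIM66 0, 0, 1.40, 1.40, 7.02 and 14.0. TRIM28, a short gene, had none in any library. Over all genes this density increased with the number of peaks listed, and TRIM33 alone was lower in EV(RBN) than in HA-RB(245-255).

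A site deep in TRIM33 stood out among body summits by its position and strength. It lay 80773 bp from the lower end at 114473563, at the same base in EV(245-255) and HA-RB(245-255), and 69 bp away at 114473494 in HA-RBN. EV(245-255) had 11 fragments there (5.49 to 19.7), HA-RB(245-255) 14 (7.65 to 23.5) and HA-RBN 7 (2.81 to 14.4), with enrichment of 58.7, 56.0 and 11. In both 245-255 libraries this exceeded the TRIM33 start, which had 3 and 7 fragments. The counting intervals of site and start overlapped in each of the 3 libraries. EV(RBN) listed no summit there, and neither did the siRNA libraries, whose wide intervals do not list weaker stacks. This site was singled out after its values were seen, and the gene table used has no exons to place it.
In TRIM24 the strongest body site lay 16940 to 18310 bp from the lower end. There were 7 fragments at 138477513 for EV(245-255), 10 at 138478569 for HA-RB(245-255), 5 at 138477199 for EV(RBN), and 6 at 138477240 and 7 at 138478437 for HA-RBN. These positions fall into 2 clusters, of which HA-RBN lists both. The siRNA pair shared another weak site, 138563287 and 138563321, with 5 and 4 fragments, inside the span of the lncRNA gene LOC124901755. With RB1 siRNA this body site stood at -0.58 (-2.92 to 1.63) relative to shared gene ends, not past 2-fold, as were 5.68% of all shared summits. In TRIM66 no body site was listed in more than 2 libraries.

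**Figure D3:**
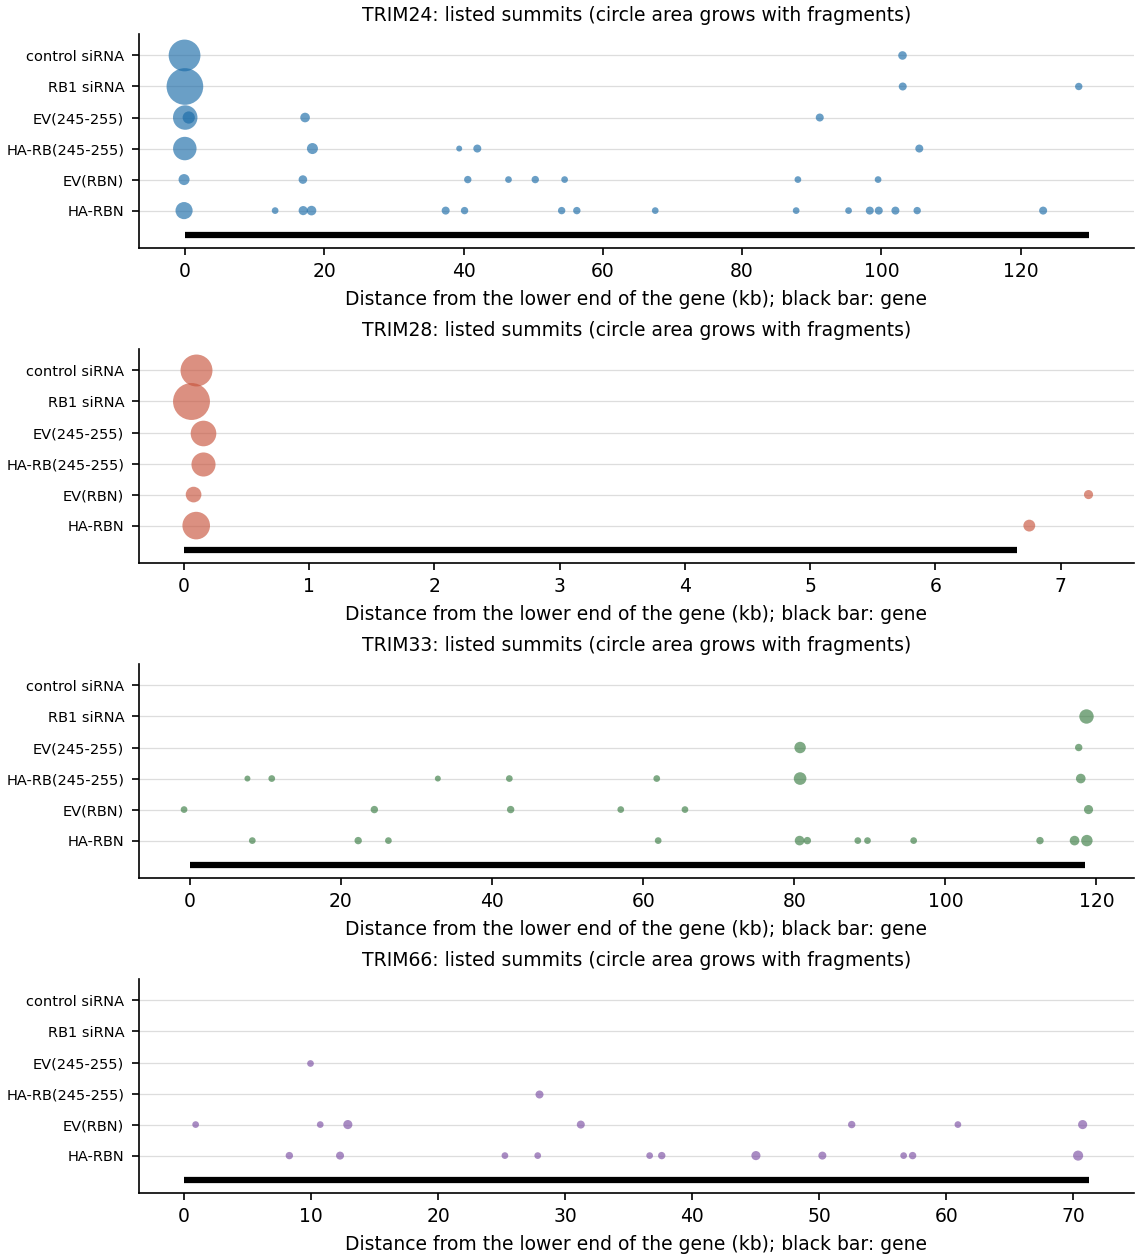
Every listed summit in the 4 genes by library, placed by its distance in kb from the lower end of the gene, with circle area growing with fragments and the gene as a black bar. The large circles sit at the lower ends of TRIM24 and TRIM28, and a site 80773 bp into TRIM33 recurs in 3 libraries.

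The siRNA pair compares cells with and without RB1 knockdown. TRIM24 and TRIM28 both had a shared summit, meaning summits of both libraries within 500 bp. TRIM24 had 138 fragments against 103, and TRIM28 had 140 against 104. Relative to the median of 3254 shared gene ends, the log2 ratio of enrichment was 0.16 for TRIM24 (95% interval -0.22 to 0.54) and 0.17 for TRIM28 (-0.21 to 0.55). Neither of the 2 was past 2-fold, as were 2.58% of shared gene ends, and both intervals include 0. At these depths a difference of 2-fold either way lies outside both intervals. The authors' −log10 p was 6.85 at both genes with RB1 siRNA. For TRIM28 further fragment numbers, 1238 with RB1 siRNA and 151 with the control siRNA, also satisfy the authors' values. The lowest solution was taken throughout, and with the highest solution at every summit of both libraries the relative ratio was 2.88.

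The 245-255 pair compares cells with the RB fragment and with its empty vector. TRIM24 had 55 fragments with HA-RB(245-255) against 60, a relative log2 ratio of -0.13 (-0.68 to 0.43), and TRIM28 had 58 against 66, at -0.19 (-0.72 to 0.34). Both intervals include 0 and leave out a 2-fold difference. TRIM33 had 7 against 3 at its start, at 1.22 (-0.91 to 3.81), with summits 272 bp apart. It was the 1 of 3 members past 2-fold, against 7.39% of the 4710 shared gene ends in either direction and 3.91% higher. So few fragments cannot separate it from 0. Its body site had 14 against 11, at 0.35 (-0.90 to 1.63), where 12.4% of all shared summits were past 2-fold.

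The RBN pair compares cells with the RBN insert and with its empty vector. TRIM24 had 28 fragments with HA-RBN against 10, and TRIM28 had 77 against 23. The median of 7816 shared gene ends was itself higher with HA-RBN, by 0.49 on the log2 scale. Relative to it TRIM24 stood at 0.21 (-0.88 to 1.41) and TRIM28 at 0.46 (-0.22 to 1.20), with 62.7% and 77.8% of shared gene ends below them. The TRIM28 upper end had -0.28 (-1.81 to 1.42), TRIM33 -0.41 (-1.97 to 1.31) and TRIM66 -0.87 (-2.58 to 0.94). None of these 5 sites was past 2-fold, as were 13.1% of shared gene ends. When all 44487 shared summits set the centre, the centre fell to -0.11 and the values became 0.81 for TRIM24 and 1.07 for TRIM28, the latter then past 2-fold. With that centre TRIM33 turned to 0.20 and the TRIM28 upper end to 0.32, so no direction is given for either.
Of the 5 shared body sites of TRIM24, 3 were past 2-fold and lower, with 2 to 6 fragments in each library, as were 29.2% of all shared summits (31.1% in either direction). Those values are relative to shared gene ends. Centred on all shared summits, an alternative added after the data were seen, 0 of the 5 were past 2-fold, and the 3 stood at -0.42, -0.68 and -0.68. The interval of every one of these sites included 0.

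**Figure D4:**
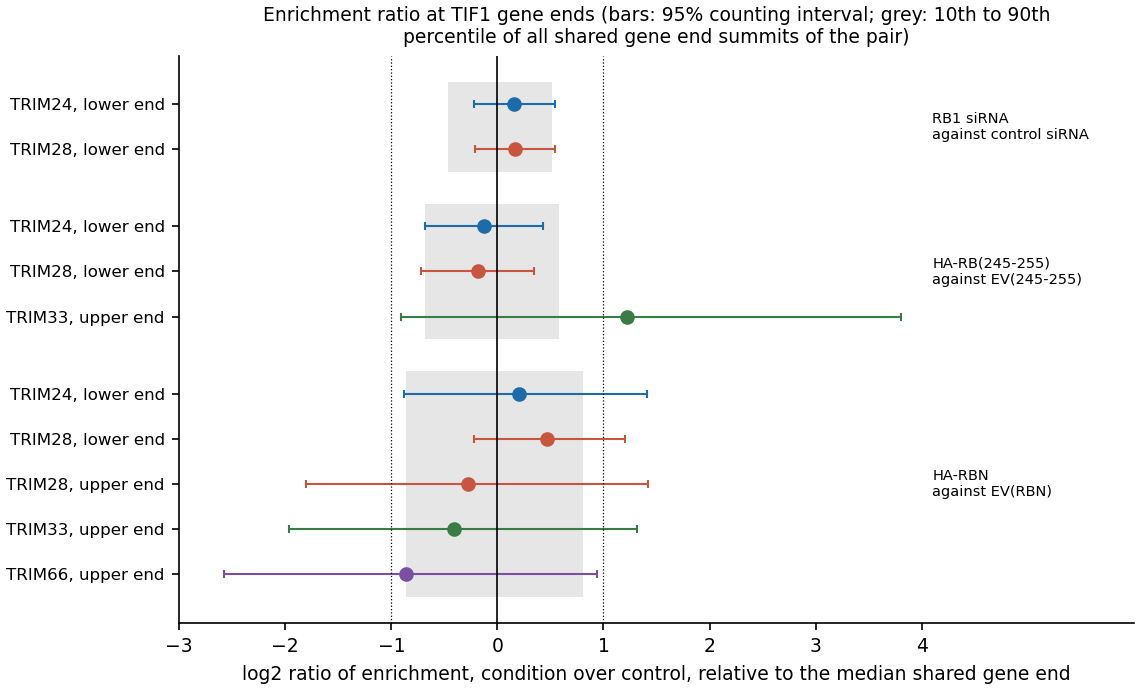
Log2 ratio of enrichment, condition over control, at each shared TIF1 gene end in the 3 pairs, relative to the median shared gene end, with 95% counting intervals as bars, dotted lines at 2-fold and the 10th to 90th percentile of all shared gene ends in grey. TRIM24 and TRIM28 lie within the grey range in each pair, every interval includes 0, and TRIM33 in the 245-255 pair alone lies past 2-fold.

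Across the 2626 genes with a gene end summit in all 6 libraries, the genes whose log2 enrichment lay closest to TRIM24 were PHLPP1, a phosphatase of AKT, at a Euclidean distance of 0.347, ZNRF2, a ubiquitin ligase gene, at 0.526, PC, pyruvate carboxylase, at 0.543, and DBF4, the activator of the replication kinase CDC7, at 0.571. SLC25A40, a mitochondrial carrier gene, shares its peak with DBF4. PHLPP1 had 109, 124, 56, 54, 12 and 30 fragments in library order, which follows TRIM24 closely. TRIM28 was the 448th gene by distance from TRIM24, at 1.90. The genes nearest TRIM28 were IQUB at 0.381, LPXN and ZFP91, which share a peak, at 0.382, and HSPA9, the mitochondrial HSP70, at 0.403. HSPA9 had 111, 129, 63, 48, 20 and 85 fragments. These distances are descriptions over 6 libraries that differ in depth.

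Genes of TIF1 partners were read from a list of 28, all of which matched a gene. With a gene end summit were 15, 15, 20, 17, 22 and 24 of them in library order, or 53.6%, 53.6%, 71.4%, 60.7%, 78.6% and 85.7%, against 28.1%, 33.5%, 45.4%, 45.5%, 60.1% and 73.3% of all genes. Of those with a shared gene end, 1 of 12 was 2-fold higher and 0 lower with RB1 siRNA, 1 was higher and 1 lower of 14 with HA-RB(245-255), and 1 was higher and 2 lower of 19 with HA-RBN. The background in these directions was 1.63% and 0.953%, 3.91% and 3.48%, and 5.44% and 7.64%. These counts are relative to shared gene ends. With all shared summits as the centre, every ratio of the RBN pair is higher. The medians of the list were -0.11, -0.16 and 0.23 relative to all shared gene ends, which have a median of 0.

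In each library the most fragments of the list were at CBX5 or CBX3. CBX5, which encodes HP1alpha, had 306, 259, 90, 69, 71 and 150 fragments in library order, and CBX3, of HP1gamma, had 229, 242, 73, 55, 45 and 164. CBX5 exceeded TRIM24 in all 6 libraries and CBX3 in 5, with equal counts in HA-RB(245-255). With RB1 siRNA CBX5 stood at -0.50 (-0.75 to -0.26). CBX1, of HP1beta, had 41 with the control siRNA and no listed end summit with RB1 siRNA, where weaker stacks in wide intervals are not listed.
The ubiquitin ligase adaptor SPOP, which targets TRIM24 for degradation in prostate cells, had 101, 79, 67, 59, 18 and 52. Its ratio with RB1 siRNA was -0.62 (-1.06 to -0.18). MDM2, a ubiquitin ligase gene, had 35, 54, 31, 23, 13 and 38, and its ratio with RB1 siRNA was 0.36 (-0.28 to 1.02). Neither SPOP nor MDM2 had a ratio past 2-fold in any pair.

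Among H3K9 and repressor genes, SUV39H1, an H3K9 methyltransferase, had 30 fragments with HA-RBN against 5, at 1.3 (-0.08 to 3.03), and no listed end summit in the other 4 libraries. In those 4, weaker stacks in wide intervals are not listed. HDAC2, a histone deacetylase, had 8 against 8 in the RBN pair, at -1.28 (-2.89 to 0.33), and SUMO2, the modifier that TRIM28 attaches, had 6 against 5, at -1.02 (-2.99 to 1.03). Both values are relative to shared gene ends, and both intervals include 0. TRIM24 body sites with the same values stood at -0.68 and -0.42 when centred on all shared summits. With that centre neither HDAC2 nor SUMO2 is past 2-fold. ATF7IP, the partner of SETDB1, had 42 with RB1 siRNA against 55, at -0.65 (-1.27 to -0.05), not past 2-fold.
Of the HUSH genes, MPHOSPH8 had 23, 26 and 16 fragments in the first 3 libraries, where the median gene end had 25, 28 and 12, and 5 and 12 in the RBN pair, where it had 5 and 10. No HUSH ratio was past 2-fold. Of the nuclear receptor genes VDR, of the vitamin D receptor, had 20 with HA-RB(245-255) against 6, at 1.74 (0.37 to 3.34). RARA, of a retinoic acid receptor, had a listed end summit only in HA-RBN, of 8 fragments, and RXRA, of its partner, had 14, 8, 4 and 6 in the last 4 libraries. SMAD3, a partner of TRIM33, had 17 with RB1 siRNA against 7, at 1.02 (-0.33 to 2.53), and 3 with HA-RB(245-255) against 9, at -1.58 (-4.11 to 0.42). SMAD2 had 45 with RB1 siRNA and no listed end summit with the control siRNA, where weaker stacks in wide intervals are not listed.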

How the data were processed

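Peak lists of 6 immunoprecipitated libraries were used. The submitters' processing notes list MACS2 2.1.0, Bowtie 1.1.2, Trimmomatic 0.33, bcl2fastq 2.17 and the build hg38, without roles. The deposited lists, made per library, have no header. They give the authors' fold enrichment, −log10 p and −log10 q and a score that is 10 times the −log10 p. Depth is therefore given as fragments per base, recovered as follows.

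Fragments were recovered by solving fold as (pileup + 1) / (background + 1) and p as a Poisson tail, with the lowest whole number that fitted. A solution was found for 99.9% or more of peaks, and a single one for 89.0% to 99.0%. On simulated data the lowest solution was the true one for 99.97% of 3300 scaled and 99.9% of 3286 unscaled peaks. The simulated local background stayed within a few times that of the library. The simulation therefore cannot tell which solution holds where a solution needs a much larger local background. At TRIM28 with the control siRNA even the lowest solution needs one. Shared summits are mutual nearest within 500 bp. Intervals are exact (Poisson for fragments, Clopper-Pearson for ratios). Gene positions and promoter windows are RefSeq's (GRCh38.p14).

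Members, lists and tests were chosen with earlier results of these data known. Named are the members, neighbours with an end within 1 kb of a counted summit, the 5 genes nearest TRIM24 (and those nearest TRIM28, added after the data were seen), and up to 4 genes per partner group, those past 2-fold first. Some listed genes are counted but not reported here by name. Alternatives are in the closing section. Python 3.11.15, numpy 2.4.6, pandas 2.3.3, scipy 1.17.1 and matplotlib 3.10.9 were used.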

Additional observations from a re-analysis of the deposited data

How the results depend on the processing

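No paired analysis was possible because each group has 1 library. With peaks of −log10 q of at least 5, the members with a gene end summit numbered 0 in the 4 libraries with an IgG partner (from 2 or 3), 1 in EV(RBN) and 2 in HA-RBN (from 4). Windows of 2 kb and 500 bp kept these counts within 1.5 times. Body summits at −log10 q of at least 2 numbered 0 in those 4 libraries, 1 in EV(RBN) and 2 in HA-RBN, and with at least 5 fragments they numbered 1, 0, 2, 2, 2 and 5 in library order. The share of shared gene ends past 2-fold became 1.14%, 1.24% and 5.59% for the siRNA, 245-255 and RBN pairs with at least 10 fragments in both libraries, and 1.72%, 5.02% and 11.7% with summits within 200 bp. Centred on all shared summits it became 28.1% in the RBN pair. With that centre, 0 of the 5 shared TRIM24 body sites were past 2-fold there, from 3. Of 46 alternative values of the members' ratios, 45 stayed inside the main interval, and the exception was TRIM28 with RB1 siRNA at 2.88 with the highest solution. When each gene end summit was counted, TRIM24 lay at percentile 85.9 in EV(RBN) and 89.7 in HA-RBN. By Pearson correlation in place of distance, 0 of the 5 genes nearest TRIM24 stayed among the first 5. Depth limits TRIM33 and TRIM66 most, with at most 19 and 8 fragments at their ends.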
